A study of Homo sapiens with 6 samples.

Results

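The mitochondrial ribosomal proteins are the nuclear-encoded proteins of the ribosome inside mitochondria. Their genes were chosen by symbol, MRPL and a number for the large subunit and MRPS and a number for the small subunit. All 76 such genes with a named probe on the array were measured, 48 MRPL and 28 MRPS genes among 9342 genes in all. RefSeq lists 77 genes of this form, and MRPL27, for which no probe was named, was not analysed here. The cells were HCT116, 1 human colorectal carcinoma line grown in serum-containing medium. One group of 3 samples received 40 µM NU7441, a small-molecule inhibitor of DNA-PK, the DNA-dependent protein kinase, and the other 3 received its vehicle, 0.1% (v/v) dimethyl sulfoxide (DMSO). Both groups were treated for 48 h, and RNA of each sample was read on 1 Illumina bead array.

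The mitochondrial ribosome translates the few messenger RNAs of mitochondrial DNA, all of which encode membrane subunits of the respiratory chain and ATP synthase. Its RNAs come from mitochondrial DNA, but all of its proteins are made in the cytosol from nuclear genes and imported. Many are homologues of bacterial ribosomal proteins, and the others, here called mitochondria-specific, have no counterpart among the bacterial ribosomal proteins. Recessive defects of several of these genes cause combined oxidative phosphorylation deficiency in people. Disease links are named below for some genes only, all of them among those that were lower. No full list of disease genes was counted, so the share of them that fell cannot be read from these names.

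Between 35.1% and 37.6% of the 47323 probes were detected per array, and median signals lay between 72.8 and 75.3. Of 6 epithelial marker genes 5 had a detected probe (EPCAM, KRT8, KRT18, KRT19 and CDH1), and VIL1 had none. Of 7 marker genes of other cells, PTPRC, CD14, CD3E, COL3A1 and PECAM1 had none, while COL1A1 and ALB had one. Their part in any result was not tested. Probes had to reach a detection p below 0.05 on each of the 3 arrays of either group. Of 110 probes of the 76 genes, 100 passed, and the brightest passing probe stood for a gene. That probe was detected on all 6 arrays in 76 of 76 genes. Just inside the threshold lay a dimmer probe of MRPL4, with 0.0169 as its highest detection p on vehicle arrays. Just outside lay a dimmer probe of MRPL3, with 0.0636 as its highest on NU7441 arrays. Neither was used. The labels do not say whether samples of a group were separate cultures, so the spread behind each p-value may be no more than technical. In bulk samples, fewer cells that express a gene and less RNA of it per cell cannot be told apart.

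After NU7441, 45 of the 76 genes were lower and 1 was higher, and 30 did not pass the threshold. The threshold was an adjusted p below 0.05 in limma, with Benjamini-Hochberg adjustment over all 9342 genes. Of all genes tested, 19.7% were lower and 18.7% were higher, whereas 59.2% of the mitochondrial ribosomal protein genes were lower and 1.32% were higher. Changes are given on the log2 scale, NU7441 minus vehicle, each with the fit's standard error (SE) and n = 3 arrays in either group. The median was -0.38, or 77.1% of the vehicle level, beside 0.00 over all genes tested. The quartiles were -0.46 and -0.10, and 64 of 76 estimates lay below 0. No gene was lower by more than 2-fold.

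The fall was present on each treated array. Set against each gene's vehicle mean, the median over the 76 genes was -0.39, -0.36 and -0.30 on NU7441 replicates 1, 2 and 3. The vehicle arrays stood at 0.00, -0.03 and 0.01. The 3 NU7441 arrays all lay below the 3 vehicle arrays in 51 of the 76 genes and all above in 4. Over all genes tested such a gap was found in 25.6% of genes below and 24.2% above. In all 46 genes past the threshold the groups did not overlap. Among all genes tested, 2396 had a gap below and 2261 above, and 1204 of these did not pass, while 3592 genes passed. Most genes that passed therefore had a gap, so a gap adds little to a call. Among the 76 genes the SD of 3 arrays had a median of 0.09 with vehicle and 0.13 with NU7441.

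**Figure D1:**
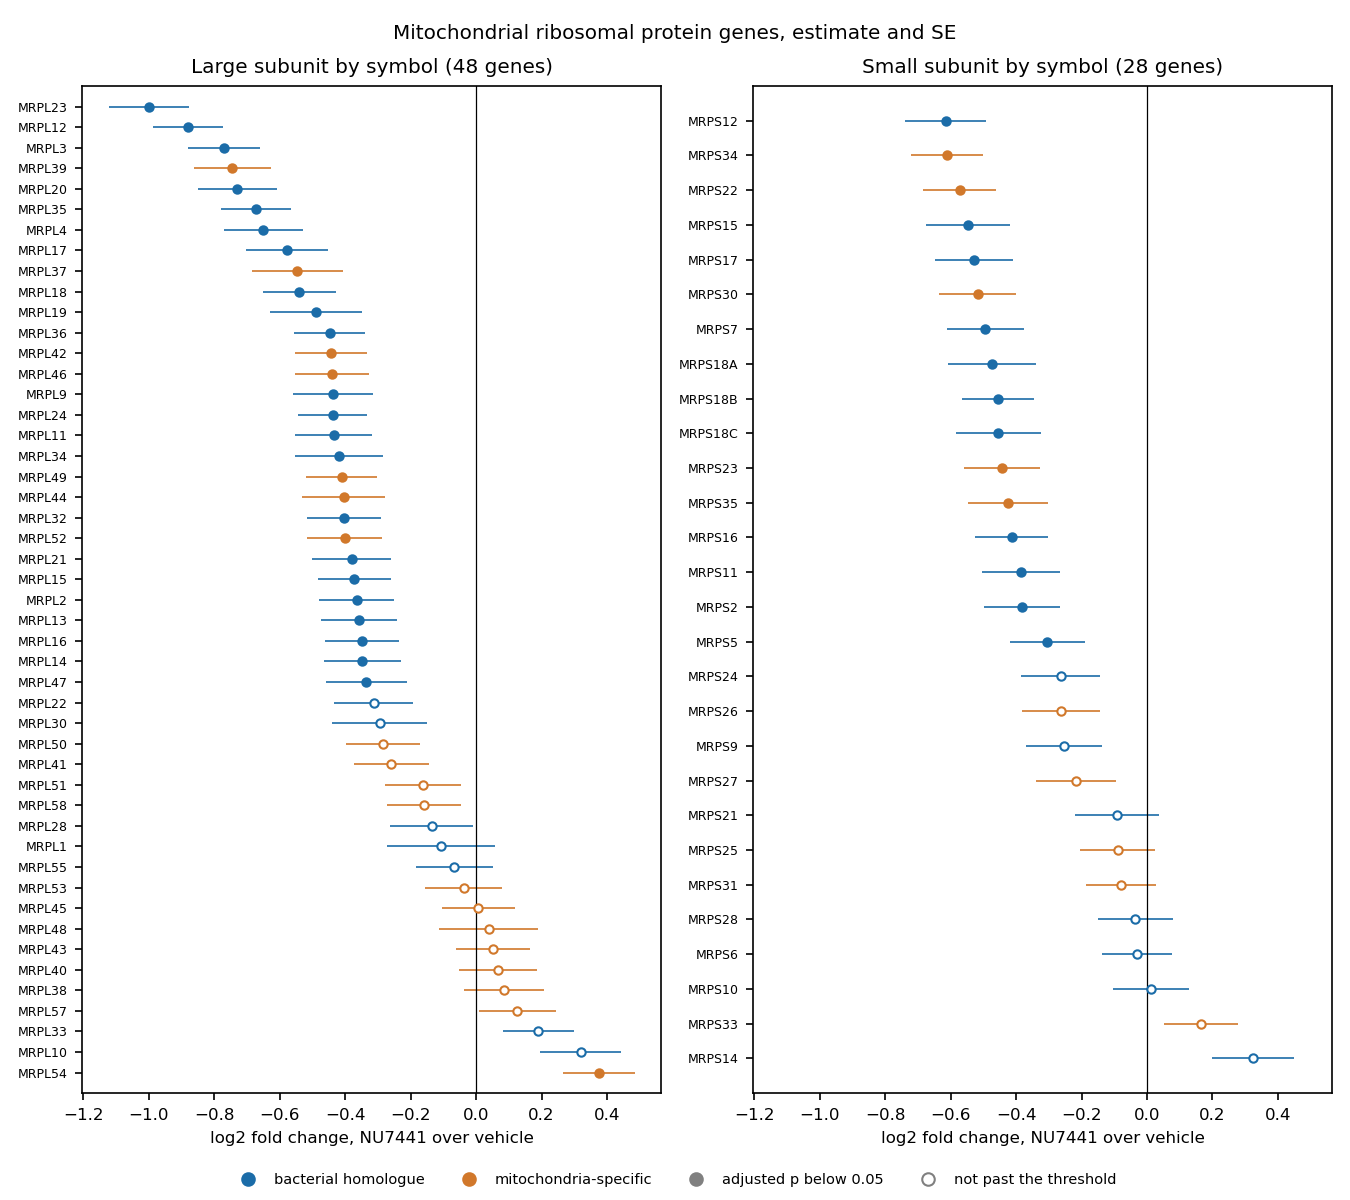
Log2 fold change of NU7441 over vehicle for each mitochondrial ribosomal protein gene, large subunit left and small subunit right, sorted by size. Points are estimates from 3 arrays per group, bars are SE, colour gives the family and filled points passed the threshold (adjusted p below 0.05): 45 filled points lie left of 0 and 1, MRPL54, lies right of it.

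Both subunits held mostly genes that were lower. Of 48 MRPL genes 29 were lower and 1 was higher, with a median of -0.37. Of 28 MRPS genes 16 were lower and 0 higher, with a median of -0.38. Estimates ran from -1.0 to 0.38 for MRPL and from -0.62 to 0.32 for MRPS. The share lower was 60.4% for MRPL and 57.1% for MRPS, against 19.7% of all genes tested. The difference between the subunits was not tested. MRPS30 and MRPS18A carry small subunit symbols although structures of the human ribosome place both proteins in the large subunit. MRPS30 read 8.84, 8.97 and 8.95 with vehicle and 8.23, 8.44 and 8.54 with NU7441, a change of -0.52 ± 0.12 (limma adjusted p = 0.00267). MRPS18A read 6.55, 6.76 and 6.81 with vehicle and 6.28, 6.46 and 5.96 with NU7441, a change of -0.47 ± 0.13 (limma adjusted p = 0.0115). Both were lower on every treated array than on any vehicle array. Counted by structure, 31 of 50 large and 14 of 26 small subunit genes were lower, with medians of -0.38 and -0.34.

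The largest falls were in the large subunit. MRPL23, a protein at the exit of the tunnel through which the new chain leaves, read 8.04, 8.02 and 8.19 in log2 intensity on the vehicle arrays and 7.08, 7.29 and 6.89 on the NU7441 arrays. Every treated array was below every vehicle array, and the change was -1.0 ± 0.12 (SE, limma adjusted p = 1.98e-05). MRPL12, the stalk protein that contacts translation factors and is also described as a partner of mitochondrial RNA polymerase, read 8.31, 8.39 and 8.27 with vehicle. With NU7441 it read 7.47, 7.42 and 7.45, a tight group far below the vehicle arrays, with a change of -0.88 ± 0.11 (limma adjusted p = 1.73e-05). MRPL3, a core protein of the large subunit in which inherited defects cause cardiomyopathy, read 10.07, 9.94 and 9.83 with vehicle and 9.16, 9.19 and 9.17 with NU7441. The treated arrays again lay together below the others, and the change was -0.77 ± 0.11 (limma adjusted p = 7.73e-05).

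MRPL39, a mitochondria-specific protein of the large subunit, came next, with 7.98, 8.02 and 8.19 against 7.47, 7.24 and 7.25 and a change of -0.75 ± 0.12 (limma adjusted p = 0.000156). MRPL20, a homologue of a bacterial protein needed early in large subunit assembly, read 7.94, 7.98 and 8.21 with vehicle and 7.19, 7.47 and 7.29 with NU7441. Its change was -0.73 ± 0.12 (limma adjusted p = 0.000241). These pairs of groups were separated by gaps wider than the spread within either group. MRPL35, a homologue of bacterial L35, fell from 8.51, 8.50 and 8.63 to 7.90, 7.85 and 7.89, by 0.67 on the log2 scale (SE 0.11). MRPL4, which lines the exit tunnel, read 6.09, 6.34 and 6.13 with vehicle and 5.58, 5.67 and 5.37 with NU7441, a change of -0.65 ± 0.12 (limma adjusted p = 0.000647). MRPL17, of the ring around the tunnel exit, read 8.82, 9.14 and 8.94 with vehicle and 8.56, 8.37 and 8.24 with NU7441, a change of -0.58 ± 0.13 (limma adjusted p = 0.00193). MRPL37, mitochondria-specific, read 9.33, 9.24 and 9.42 with vehicle and 9.07, 8.80 and 8.48 with NU7441, a change of -0.55 ± 0.14 (limma adjusted p = 0.00582). Its treated arrays were the most spread of the 12 largest falls, yet all lay below vehicle.

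In the small subunit MRPS12 led. It is the homologue of bacterial S12 at the decoding centre, and it read 9.76, 9.95 and 10.00 with vehicle and 9.46, 9.32 and 9.09 with NU7441. The change was -0.62 ± 0.12 (limma adjusted p = 0.00121), with NU7441 replicate 3 the lowest. MRPS34, mitochondria-specific and a gene of inherited oxidative phosphorylation deficiency, read 6.56, 6.49 and 6.63 against 6.04, 5.91 and 5.90, a change of -0.61 ± 0.11 (limma adjusted p = 0.000476). MRPS22, another mitochondria-specific disease gene, read 9.31, 9.10 and 9.28 against 8.65, 8.62 and 8.71, a change of -0.57 ± 0.11 (limma adjusted p = 0.000912). All 3 treated arrays of each gene were below all 3 vehicle arrays. MRPS15 and MRPS17, homologues of bacterial small subunit proteins, were at -0.55 and -0.53. MRPS7, a protein of the head of the subunit and a disease gene, read 7.76, 7.60 and 7.60 with vehicle and 7.09, 7.34 and 7.05 with NU7441, a change of -0.49 ± 0.12 (limma adjusted p = 0.00395). The disease gene MRPS16 read 7.09, 7.04 and 7.19 with vehicle and 6.66, 6.60 and 6.82 with NU7441, a change of -0.41 ± 0.11 (limma adjusted p = 0.00906). MRPS2, another disease gene, read 6.78, 7.04 and 6.78 with vehicle and 6.42, 6.56 and 6.47 with NU7441, a change of -0.38 ± 0.12 (limma adjusted p = 0.0164). Again no treated array reached a vehicle array, but for MRPS2 the call was lost without vehicle replicate 2, where its adjusted p was 0.0932.

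**Figure D2:**
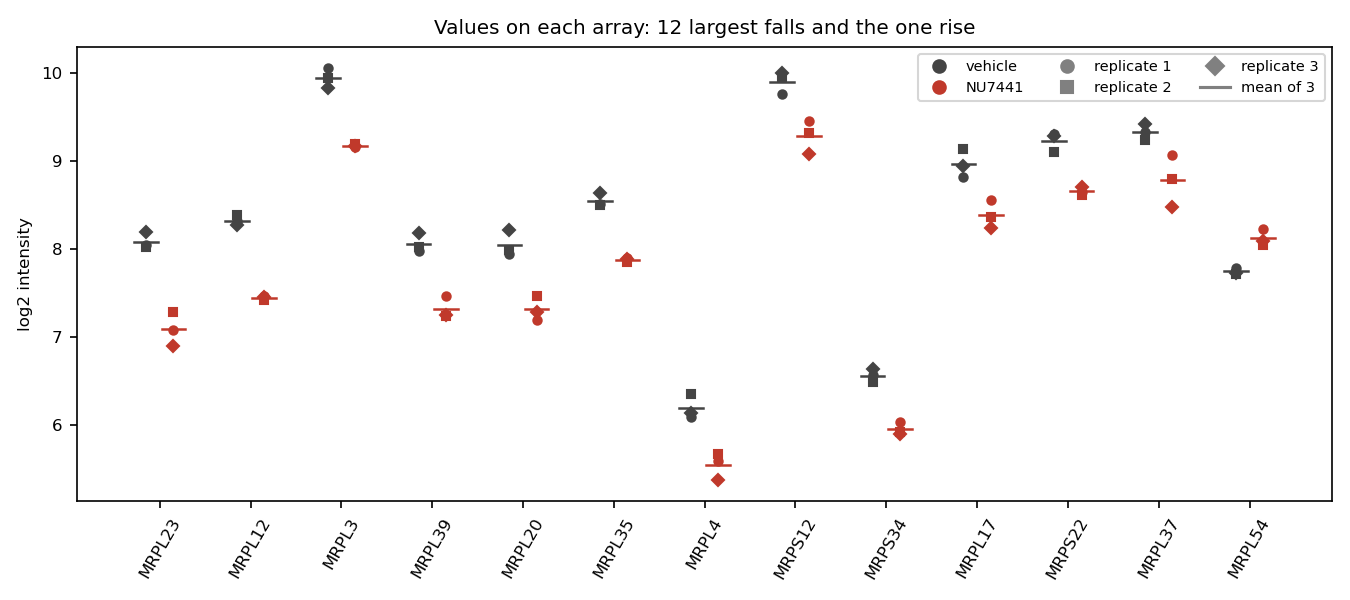
Log2 intensity on each array for the 12 genes with the largest falls and for MRPL54. Dark symbols are vehicle, red symbols NU7441, shapes mark replicates and lines the mean of 3; in all 13 genes the 2 groups are separated, with NU7441 below except in MRPL54.

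The genes were next taken by the place of their protein. Of the stalk proteins, MRPL12 was described above. MRPL11, at the stalk base, read 8.57, 8.76 and 8.49 with vehicle and 8.20, 8.27 and 8.04 with NU7441, a change of -0.44 ± 0.12 (limma adjusted p = 0.00861). By contrast MRPL10, which anchors the stalk, read 6.56, 6.56 and 6.54 with vehicle and 6.71, 6.78 and 7.13 with NU7441. MRPL10 thus lay above vehicle on each treated array, at 0.32 ± 0.12 (limma adjusted p = 0.0529). Its estimate rested in part on NU7441 replicate 3, without which it was 0.19 (adjusted p = 0.176). That p was 0.0234 without NU7441 replicate 1, 0.0605 without NU7441 replicate 2 and between 0.113 and 0.126 when vehicle arrays were left out in turn. For MRPL11 the adjusted p was 0.0535 without vehicle replicate 2. 

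Around the tunnel, MRPL23, MRPL4 and MRPL17 stood among the largest falls. MRPL24, of the exit ring, read 8.86, 8.86 and 8.86 with vehicle and 8.46, 8.38 and 8.42 with NU7441, a change of -0.44 ± 0.11 (limma adjusted p = 0.00428). Its vehicle arrays were nearly equal and its treated arrays lay clearly below them. MRPL47, the homologue of bacterial L29, read 6.41, 6.39 and 6.31 with vehicle and 5.95, 6.28 and 5.87 with NU7441, a change of -0.34 ± 0.12 (limma adjusted p = 0.043). Its call was lost in 11 of 18 alternatives, 5 of them with 1 array left out (each but NU7441 replicate 2), at adjusted p-values of 0.12, 0.112, 0.0736, 0.0996 and 0.12. MRPL22, which lines the tunnel with MRPL4, read 8.62, 8.59 and 8.68 with vehicle and 8.48, 8.37 and 8.10 with NU7441, a change of -0.31 ± 0.12 (limma adjusted p = 0.051) with separated groups. MRPL22 was called lower in 8 of 18 alternatives, and its adjusted p ran from 0.0042 to 0.156 over them all. MRPL45, the mitochondria-specific protein at the tunnel exit that touches the inner membrane, read 8.57, 8.40 and 8.59 with vehicle and 8.47, 8.51 and 8.59 with NU7441, with overlapping groups. Its estimate was 0.01 with a 95% interval of -0.23 to 0.24, and its second probe stood at 0.01 too.

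The 3 homologues of bacterial S18 had nearly equal estimates. MRPS18A was at -0.47, MRPS18B at -0.46 and MRPS18C at -0.45. MRPS18B read 8.56, 8.50 and 8.65 with vehicle and 8.18, 8.09 and 8.07 with NU7441, again with no overlap. Without vehicle replicate 3 the calls of MRPS18A and MRPS18C were lost, at adjusted p-values of 0.0543 and 0.0683. MRPL32, which the m-AAA protease must mature before it is built into the ribosome, read 8.85, 8.82 and 8.76 with vehicle and 8.55, 8.38 and 8.29 with NU7441, a change of -0.40 ± 0.11 (limma adjusted p = 0.0106). MRPL44, with a ribonuclease III-like fold and defects that cause cardiomyopathy, read 7.25, 6.81 and 6.87 with vehicle and 6.55, 6.50 and 6.66 with NU7441, a change of -0.41 ± 0.13 (limma adjusted p = 0.0204). Vehicle replicate 1 of MRPL44 stood above the other vehicle arrays, and its adjusted p was 0.135 without that array and 0.0673 without NU7441 replicate 2. Beside the peptidyl transferase centre, MRPL2 read 7.21, 7.52 and 7.40 with vehicle and 7.01, 6.99 and 7.03 with NU7441, a change of -0.37 ± 0.12 (limma adjusted p = 0.0202). MRPL16, of the tRNA binding region, read 7.90, 7.84 and 8.05 with vehicle and 7.50, 7.58 and 7.66 with NU7441, a change of -0.35 ± 0.11 (limma adjusted p = 0.0224). Both pairs of groups were separated, but both calls were lost without vehicle replicate 3 and without NU7441 replicate 2, at adjusted p-values between 0.0539 and 0.108. MRPL2 was also lost without vehicle replicate 2, at 0.102, and MRPL16 without replicate 1 of either group, at 0.0535 and 0.0612.

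Counts were also taken by descent. Of 47 bacterial homologues 33 were lower and 0 higher, or 70.2%, with a median of -0.39, beside 19.7% lower and 18.7% higher among all genes tested. Of 29 mitochondria-specific genes 12 were lower and 1 higher, or 41.4% and 3.45%, with a median of -0.26. In the large subunit the shares lower were 22 of 29 homologues and 7 of 19 specific genes, with medians of -0.40 and -0.16. In the small subunit they were 11 of 18 and 5 of 10, with medians of -0.38 and -0.34. By array, the median of the large subunit's specific genes was -0.21, -0.25 and -0.03 on NU7441 replicates 1, 2 and 3, against -0.41, -0.43 and -0.44 for its homologues. NU7441 replicate 3 was thus the treated array nearest to vehicle in these specific genes. The families were assigned from general knowledge, and their difference was not tested.

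MRPL54, a mitochondria-specific gene, was the member that rose. Its arrays read 7.79, 7.72 and 7.73 with vehicle and 8.22, 8.05 and 8.09 with NU7441, without overlap. The change was 0.38 ± 0.11 (limma adjusted p = 0.0129), or 130% of the vehicle level. With arrays scaled to their 75th percentile it was 0.19 with an adjusted p of 0.208. MRPS14, the homologue of bacterial S14, read 4.87, 4.51 and 4.65 with vehicle and 4.92, 5.18 and 4.91 with NU7441. It was at 0.32 ± 0.13 (limma adjusted p = 0.0531), and its adjusted p was 0.0342 without vehicle replicate 1. Leaving out NU7441 replicate 1 gave an adjusted p of 0.0471, and leaving out replicate 3 of that group gave 0.0395. The other omissions left it further from the threshold, with 0.211 when vehicle replicate 2 was left out, 0.132 for vehicle replicate 3 and 0.203 for NU7441 replicate 2. Its signal was dim, and the estimate was 0.11 without background correction, 0.15 with an offset of 50 and 0.10 in the authors' deposited log2 table. MRPL33, a homologue of bacterial L33, read 9.67, 9.61 and 9.62 with vehicle and 9.89, 9.82 and 9.75 with NU7441, a change of 0.19 ± 0.11 (limma adjusted p = 0.174) with all treated arrays above vehicle.

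Of the 30 genes that did not pass, 19 had estimates below 0 and 11 above, and 9 had groups that did not overlap, or 30% of them beside 20.9% of all 5750 genes tested that did not pass. An unadjusted p below 0.05 was found in 8 of the 30, or 26.7% beside 15.9% of the 5750, among them MRPL50 at -0.28 and MRPS26 at -0.26. MRPS24, the homologue of bacterial S3 at the messenger entry, read 8.63, 8.60 and 8.64 with vehicle and 8.24, 8.25 and 8.60 with NU7441, a change of -0.26 ± 0.12 (limma adjusted p = 0.0963). NU7441 replicate 3 was its highest treated array, just below the lowest vehicle array, and the adjusted p was 0.0132 without that array and between 0.163 and 0.263 without any other array. MRPL41, also described as a partner of BCL2, read 8.12, 8.15 and 8.24 with vehicle and 7.99, 7.76 and 7.99 with NU7441, a change of -0.26 ± 0.11 (limma adjusted p = 0.0834). The SE of a gene was 0.12 at the median, so changes of this size lie near the limit of 3 arrays per group. Estimates close to 0 were those of MRPS6, at -0.03 with a 95% interval of -0.26 to 0.20, MRPS28 at -0.04, MRPS10 at 0.01 and MRPL48 at 0.04. MRPL58, the peptidyl-tRNA hydrolase of the ribosome, read 7.78, 7.78 and 7.89 with vehicle and 7.60, 7.57 and 7.80 with NU7441, and its estimate of -0.16 had an interval of -0.40 to 0.08. MRPS27, a pentatricopeptide repeat protein, read 7.62, 7.81 and 7.53 with vehicle and 7.54, 7.25 and 7.52 with NU7441, a change of -0.22 ± 0.12 (limma adjusted p = 0.175), and its arrays overlapped as those of MRPL58 did. MRPL1 had the largest SE, with vehicle arrays at 7.86, 7.49 and 7.49 and NU7441 arrays at 7.25, 7.33 and 7.94. NU7441 replicate 3 was the highest of all 6, and the estimate was -0.11 ± 0.17.

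Leaving out 1 array at a time kept 26 of the 45 lower calls every time and lost the other 19 at least once. Without vehicle replicate 3 the count was 33, with 12 calls lost at adjusted p-values between 0.0516 and 0.137. In that fit 15.5% of all genes were lower, against 19.7% with all 6 arrays. MRPS11, MRPS35 and MRPL15 were among the 12 calls lost. Without NU7441 replicate 2 the count of members lower was 35, and MRPL9, MRPL13, MRPL14 and MRPL19 were among 11 calls lost. The share of all genes lower was then 17%. Without NU7441 replicate 3, whose median was nearest to vehicle, the count was 44 and the median -0.37, with 19.7% of all genes lower. All lost calls kept estimates below 0, between -0.42 and -0.24. MRPS5, near the messenger entry, read 6.77, 6.91 and 6.69 with vehicle and 6.53, 6.37 and 6.56 with NU7441, a change of -0.30 ± 0.11 (limma adjusted p = 0.0465). Its call was lost in 5 of the 6 fits, each but that without NU7441 replicate 3, at adjusted p-values between 0.0538 and 0.174. MRPL21, a homologue of bacterial L21, likewise kept its call in that fit only, at between 0.053 and 0.0954 in the others.

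Several genes had more than 1 kept probe, which gives a second reading within the same arrays. In 21 genes 24 dimmer probes were kept, and 21 of the 24 had the same sign as the brightest probe. When all 14973 kept probes were tested, 8 of the 24 were lower and 0 higher, beside 17.5% and 16.7% of all kept probes. Of 13 dimmer probes whose brightest probe was called in that fit, 8 were called too. The like shares over all genes with several kept probes were not taken, so whether this agreement is usual cannot be told. MRPL20 stood at -1.02 on the dimmer and -0.73 on the brighter probe, and MRPL11 at -0.75 and -0.44. MRPS12 had dimmer probes at -0.73 and -0.50. MRPL21, MRPL24, MRPL42 and MRPS18B had dimmer probes at -0.65, -0.55, -0.53 and -0.63, all called lower like the brighter ones. Among genes with no call, MRPL43 stood at 0.05, -0.07 and -0.18, MRPS21 at -0.09 and -0.16 and MRPS33 at 0.16 and 0.00, brightest probe first. In the same order MRPL30 stood at -0.30 and -0.03, MRPL55 at -0.07 and -0.30 and MRPL22 at -0.31 and -0.21. MRPS27 stood at -0.22 and -0.29 and MRPL33 at 0.19 and 0.06. MRPS11, called on its brightest probe, had a dimmer probe at -0.39 that was not called. The MRPL43 probe at -0.18 was detected on 3 vehicle but only 2 NU7441 arrays. It was thus kept through vehicle alone, which can favour an estimate below 0. Dimmer probes lay well above the brightest one in MRPL4 at -0.11, MRPL35 at -0.17 and -0.36, MRPL18 at -0.19 and MRPL47 at -0.02, with none of these past the threshold. That MRPL4 probe was dim, at 4.55, 5.18 and 4.94 with vehicle and 4.95, 4.49 and 4.91 with NU7441. Its highest detection p on NU7441 arrays was 0.0299. What the probes of a gene target was not analysed here.

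The brightest probes of the genes in that group not yet described were as follows on the arrays. MRPL18, a homologue of bacterial L18, read 9.36, 9.23 and 9.23 with vehicle and 8.84, 8.67 and 8.70 with NU7441, a change of -0.54 ± 0.11 (limma adjusted p = 0.00137). MRPL42, mitochondria-specific, read 7.77, 7.64 and 7.59 with vehicle and 7.28, 7.19 and 7.21 with NU7441, a change of -0.44 ± 0.11 (limma adjusted p = 0.005). MRPS11, a homologue of bacterial S11, read 7.55, 7.63 and 7.86 with vehicle and 7.35, 7.37 and 7.16 with NU7441, a change of -0.39 ± 0.12 (limma adjusted p = 0.0189). In these the groups did not overlap, and the same held for MRPL21, at 8.66, 8.64 and 8.62 with vehicle and 8.19, 8.11 and 8.49 with NU7441, where NU7441 replicate 3 stood nearest to vehicle. MRPL30, a homologue of bacterial L30, read 6.35, 6.58 and 6.68 with vehicle and 5.94, 6.52 and 6.26 with NU7441, a change of -0.30 ± 0.14 (limma adjusted p = 0.116). MRPS21, a homologue of bacterial S21, read 9.89, 9.43 and 9.81 with vehicle and 9.60, 9.60 and 9.66 with NU7441, and MRPS33, mitochondria-specific, read 8.06, 8.18 and 8.12 with vehicle and 8.39, 8.31 and 8.15 with NU7441. The groups overlapped in each of the last 3 genes. MRPL43, mitochondria-specific, read 8.68, 8.56 and 8.60 with vehicle and 8.61, 8.59 and 8.80 with NU7441. MRPL55 read 6.19, 6.34 and 6.36 with vehicle and 6.11, 6.17 and 6.42 with NU7441. The arrays of these 2 genes overlapped as well.

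**Figure D3:**
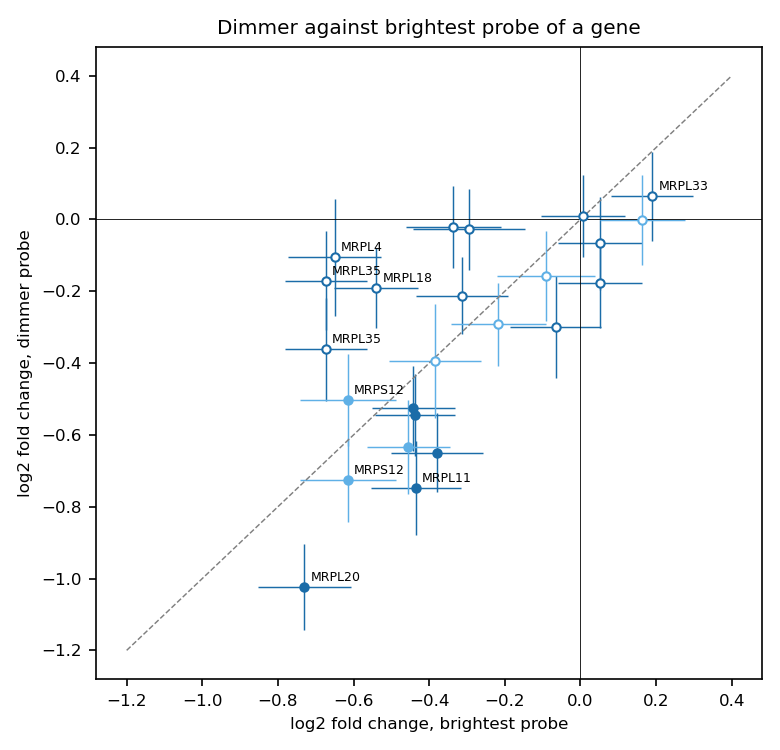
Log2 fold change of each dimmer kept probe against that of the brightest probe of the same gene, with SE bars, for 24 dimmer probes of 21 genes (MRPL dark, MRPS light blue). Filled points passed the threshold for the dimmer probe, the dashed line marks equality, and MRPL4, MRPL35, MRPL18 and MRPL47 are among those above it.

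Genes that act with the mitochondrial ribosome were counted in the same fit. Of 22 measured assembly factors 7 were lower and 2 higher, or 31.8% and 9.09%, beside 19.7% and 18.7% of all genes tested, with a median of -0.22. Those lower included MRM3 and MRM2, methyltransferases of the large ribosomal RNA, at -0.69 and -0.54, MTERF3 at -0.64, the helicase genes DDX28 and DHX30 at -0.52 and -0.51, and RBFA, a small subunit maturation factor, at -0.46. NOA1 and YBEY were higher, at 0.39 and 0.44. Of 16 mitochondrial translation factors 6 were lower and 0 higher, or 37.5% and 0%, with a median of -0.27. GUF1, a GTPase of the elongation factor 4 family, was at -0.85, SLIRP, which binds mitochondrial messenger RNA, at -0.61, TACO1, a translational activator of cytochrome oxidase subunit I, at -0.58, the elongation factor gene GFM1 at -0.53, the initiation factor gene MTIF2 at -0.35 and TSFM, of another elongation factor, at -0.33. Of 3 mitochondrial ribosomal proteins without an MRP symbol, DAP3, CHCHD1 and GADD45GIP1, none passed, at 0.13, -0.06 and 0.33.

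Genes of the cytosolic ribosome and the respiratory chain were set beside them on the same arrays. Of 67 cytosolic ribosomal protein genes 5 were lower and 6 higher, or 7.46% and 8.96%, with a median of 0.01, beside the 19.7% and 18.7% of all genes tested. The falls were RPL29, RPS7, RPL36A, RPS21 and RPL34, from -1.56 to -0.63, and RPL14 had the largest rise, at 0.73. Vehicle means of these 5 falls lay between 6.11 and 9.31, while many other cytosolic genes were brighter, up to 12.8 for RPL41. The brightest mitochondrial ribosomal gene, MRPL3, had a vehicle mean of 9.95. What signal level adds to the contrast was not tested. Of 70 nuclear subunits of oxidative phosphorylation 19 were lower and 3 higher, or 27.1% and 4.29%, beside the same 19.7% and 18.7%, with a median of -0.11. ATP5MC1, a gene of the ATP synthase c subunit, was lowest at -0.84, and NDUFB8 of complex I was at -0.56. COX6A1 of complex IV and NDUFB11 and NDUFA2 of complex I were higher, at 0.39, 0.42 and 0.46. These counts stand beside those of the mitochondrial ribosomal proteins as a description, and the differences between lists were not tested.

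**Figure D4:**
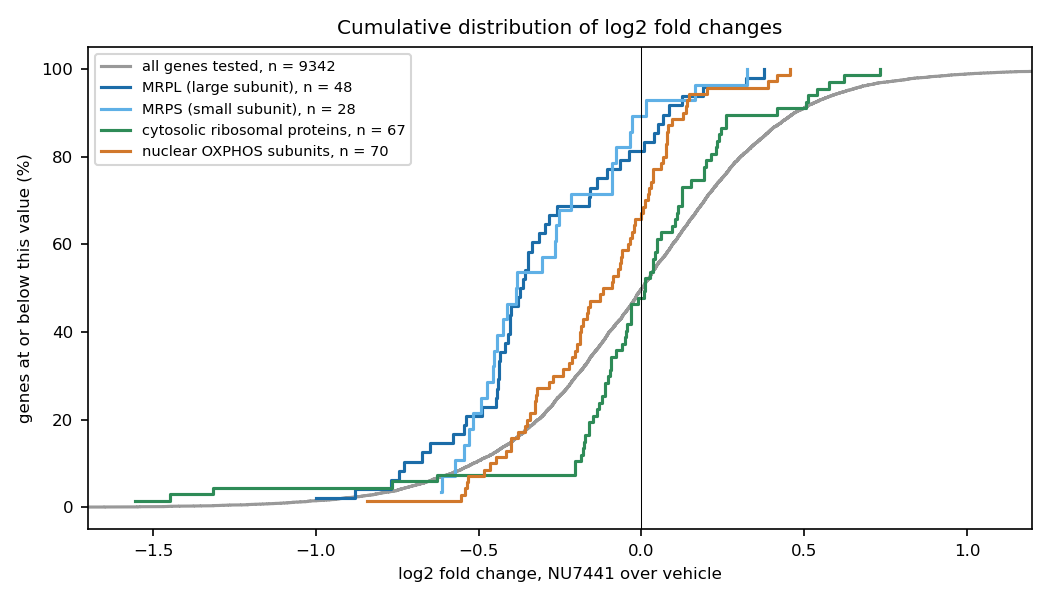
Share of genes (%) at or below each log2 fold change of NU7441 over vehicle for 48 MRPL, 28 MRPS, 67 cytosolic ribosomal protein and 70 nuclear oxidative phosphorylation (OXPHOS) genes and all 9342 genes tested. At the medians the 2 mitochondrial ribosomal curves lie to the left of the others, at -0.37 and -0.38 against 0.01, -0.11 and 0.00. Further left the curves cross, with lowest values of -0.62 for MRPS, -0.84 for OXPHOS and -1.56 for cytosolic genes.

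Promoter sequences of the genes were searched for motifs of factors known to act on genes for mitochondrial or growth-related proteins. RefSeq promoters of GRCh38.p14, from 250 bases before to 50 bases after the start, were on hand for 68 of the 76 genes. CCGGAAG, the core of ETS and GABP factors, was found on either strand in 28 of 68, or 41.2%, beside 14.2% of 15843 protein-coding promoters and 20.8% of the 7568 promoters of genes tested. AAGATGG, part of the YY1 motif, was found in 23 of 68, or 33.8%, beside 6.4% and 8.07%. Both factors are known regulators of nuclear genes for mitochondrial proteins. CACGTG, the E-box of MYC and MAX, was found in 6 of 68, or 8.82%, beside 8.88% and 10.7%. The NRF1 core GCATGCGC was found in 6 of 68 (8.82%, beside 4.26% and 5.95%), and a longer NRF1 motif that contains this core in 1 of 68 (1.47%, beside 1.75% and 2.46%). CCAAT of NF-Y was in 27.9%, beside 36.4% and 38.0%, and GGGCGG of SP1 in 61.8%, beside 58.5% and 72.3%.

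Within the 68 genes, the ETS core was in 12 of 39 promoters of genes that were lower and in 16 of 29 of the rest. The YY1 letters were in 15 of 39 and 8 of 29, and the E-box in 4 of 39 and 2 of 29. The NRF1 core was in 5 of 39 and 1 of 29, and the longer NRF1 motif in 1 of 39 and 0 of 29. The NF-Y letters were in 13 of 39 and 6 of 29, and the SP1 letters in 21 of 39 and 21 of 29. These are matches of letters in a window, with base composition not matched and no test. Shown are the 250 bases before the start for MRPL12 and MRPL3, and for MRPS12 and MRPS34, which had the largest falls of each subunit among genes with a promoter on hand, and for MRPL54, which rose. They run 5′ to 3′ along the gene, on GRCh38.p14, and capitals mark matches to any of the 7 motifs on either strand.
MRPL12, chr17:81703117-81703366, plus strand: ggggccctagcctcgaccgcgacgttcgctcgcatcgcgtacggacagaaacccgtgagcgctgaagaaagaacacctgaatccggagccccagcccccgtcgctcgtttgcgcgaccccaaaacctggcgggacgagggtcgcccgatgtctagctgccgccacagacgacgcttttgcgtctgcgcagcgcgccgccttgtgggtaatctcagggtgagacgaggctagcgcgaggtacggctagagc
MRPL3, chr3:131502972-131503221, minus strand: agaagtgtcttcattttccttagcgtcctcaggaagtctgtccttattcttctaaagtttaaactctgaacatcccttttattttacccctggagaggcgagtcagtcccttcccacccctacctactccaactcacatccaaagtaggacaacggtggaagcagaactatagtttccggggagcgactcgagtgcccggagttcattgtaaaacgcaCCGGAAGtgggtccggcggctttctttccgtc
MRPS12, chr19:38930694-38930943, plus strand: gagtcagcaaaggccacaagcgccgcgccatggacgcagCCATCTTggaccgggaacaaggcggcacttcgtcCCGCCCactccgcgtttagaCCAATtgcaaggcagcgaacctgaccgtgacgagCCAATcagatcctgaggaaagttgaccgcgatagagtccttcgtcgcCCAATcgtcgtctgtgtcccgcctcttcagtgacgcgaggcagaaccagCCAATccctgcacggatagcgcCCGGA
MRPS34, chr16:1773135-1773384, minus strand: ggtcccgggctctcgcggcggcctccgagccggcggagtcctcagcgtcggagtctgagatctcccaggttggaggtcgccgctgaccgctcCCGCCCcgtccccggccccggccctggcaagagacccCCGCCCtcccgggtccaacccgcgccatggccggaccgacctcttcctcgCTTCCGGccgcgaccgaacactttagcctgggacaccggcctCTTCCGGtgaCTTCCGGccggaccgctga
MRPL54, chr19:3762432-3762681, plus strand: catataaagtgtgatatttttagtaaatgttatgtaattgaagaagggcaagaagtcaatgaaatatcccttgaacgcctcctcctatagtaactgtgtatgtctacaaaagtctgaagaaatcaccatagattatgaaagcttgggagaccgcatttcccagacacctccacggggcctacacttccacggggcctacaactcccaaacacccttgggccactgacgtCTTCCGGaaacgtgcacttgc
MRPL12, one of the deepest falls, held none of the 7 motifs in its whole window, whereas MRPL3 held 1 ETS core from -32 to -26. MRPS12 held 4 CCAAT boxes, a YY1 match, an SP1 match and an ETS core that runs across the start. MRPS34 held 3 ETS cores and 2 SP1 matches. MRPL54, which rose, held an ETS core from -21 to -15, so this match was present in genes that moved either way.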

How the data were processed

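Members and lists were chosen with earlier results of these data known. Biotinylated cRNA was made from total RNA, per the labels' protocols. The submitters' processing notes name GenomeStudio, R 3.0.2 and lumi, the role of each not given in the sources used here. Deposited signals are linear intensity without normalization between arrays, and each has a detection p-value, per the file headers. A second deposited table holds log2 values, which differed by at most 0.061 from quantile-normalized log2 signals and was an alternative.

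The intensity values were background corrected with normexp (limma 3.58.1, R 4.3.3; negative controls inferred from detection p, offset 16), quantile normalized and log2 transformed, with an offset that shrinks changes of dim probes. Of 47323 probes 14973 were kept, and the brightest kept probe of each symbol in GEO's platform annotation gave 9342 genes. Differences were tested with lmFit and eBayes, with group as the sole term, and adjusted over all genes by Benjamini-Hochberg. The procedure was tested on simulated data. Oxidative phosphorylation and cytosolic ribosomal lists were taken by symbol among protein-coding genes. Array values are given for the 12 largest falls, all rises past the threshold, genes with several kept probes and genes of known role. Other lists name at most 6 genes past the threshold by size. NOA1, YBEY, COX6A1, NDUFB11, NDUFA2, MRPL1 and the genes of the list without an MRP symbol fall outside this rule and were named after their values were seen. Transcripts of near-identical processed copies could add to a probe's signal, which was not examined. Same-numbered samples deviated with correlations of -0.11, 0.05 and -0.07, so numbers were not treated as pairs. Orientation of the promoter sequences was checked by the position of TATA boxes. Alternatives were other background corrections and scalings, filters, probe rules, variance models, thresholds, a replicate block, 1 array left out at a time, and subunits by structure. Plotting used Python 3.11.15 and matplotlib 3.10.9.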

Additional observations from a re-analysis of the deposited data

How the results depend on the processing

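In 18 alternatives, no called gene among the 76 changed sign. Genes with no call did change sign, 7 of them with 75th percentile scaling and 2 to 5 with 1 array left out. Without background correction 0 did. Of the 45 lower calls 21 were kept in every alternative. With the replicate block 44 were lower (29 MRPL, 15 MRPS), the call of MRPS5 being lost at an adjusted p of 0.0684. Leaving out 1 array gave 33 to 44 lower (21 to 28 MRPL, 11 to 16 MRPS), 1 to 3 higher (1 to 2 MRPL, 0 to 1 MRPS), and medians of -0.374 to -0.351 for all members, -0.374 to -0.351 for MRPL and -0.42 to -0.352 for MRPS. Of all genes, 15.5% to 19.7% were lower in those fits. Without a detection filter 40 were lower (25 MRPL, 15 MRPS), beside 8.01% of the 20045 genes then tested. An ordinary t statistic gave 24 lower (16 MRPL, 8 MRPS), and an adjusted p below 0.01 gave 26 lower (16 MRPL, 10 MRPS) and 0 higher. Of all genes, 12% were lower with the ordinary t statistic and 13.1% at an adjusted p below 0.01. The stricter threshold asks for a smaller p by construction, and the cause of the lower count with the ordinary t statistic was not tested. Medians for all members, MRPL and MRPS were -0.267, -0.267 and -0.264 without background correction, -0.296, -0.296 and -0.304 with an offset of 50, -0.273, -0.273 and -0.27 in the authors' deposited log2 table, and -0.5, -0.5 and -0.513 with 75th percentile scaling. That scaling moved the median of all genes to -0.06 and the share of all genes lower to 24%, with 0 members higher. The count of higher members was 3 without background correction (3 MRPL), 2 with an offset of 50, in the deposited table, with detection p below 0.01 on all 6 arrays or with an intensity trend (2 MRPL each), 3 when probes of a gene were averaged (2 MRPL, 1 MRPS) and 2 with array weights (1 MRPS). The cause was not tested. MRPS14 could not be followed with the stricter detection filter. Signal over background limits dim genes such as MRPS14 and MRPL28.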
